A study of Homo sapiens with 12 samples.

Results

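NF-Y and the SP factors NFYA, NFYB, NFYC, SP1 and SP3 were described in NCI-H295R, a steroid-producing line from a human adrenocortical carcinoma. The 5 genes were taken from the table by gene symbol, and as a group they had been selected on the low NFYA level of CJ28-treated cells, so that every difference of a member between CJ28 and vehicle, and between CJ28 and metyrapone, is given here as a description without a test. They are 5 of the 60662 genes listed, and all 5 were among the 16815 genes with at least 0.5 TPM, a length-corrected share of all transcripts of a library, in at least 4 of the 12 samples, which were the genes tested. Confluent cells were kept without serum for 12 h and then exposed for 24 h to vehicle (VEH, 0.1% DMSO), to 30 µM CJ28 or to 30 µM metyrapone (MET), with 4 samples in each group. CJ28 is an inhibitor of cortisol synthesis developed recently, and MET inhibits 11β-hydroxylase, the enzyme that makes cortisol. All groups share the line and the serum-free medium, and nothing in the labels ties samples to separate passages of the line, so p-values measure the spread between these samples only.

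NF-Y is a transcription factor of 3 different subunits that binds the CCAAT box, a short word found upstream of many genes of the cell cycle, of sterol and fatty acid synthesis and of the endoplasmic reticulum (ER) stress response. NFYB and NFYC pair through histone folds, and NFYA joins the pair and supplies the contact with the CCAAT box, so the trimer needs each subunit. SP1 and SP3 are zinc finger proteins that bind GC boxes and often act beside NF-Y and, on sterol-regulated promoters, beside SREBP. In steroidogenic cells SP1 is known as a factor of the promoters of CYP11A1 and other genes of steroid synthesis.

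Promoters are shown first, because they hold the words that these factors bind and because the members themselves are candidates for such words. Each runs from 250 bases before to 50 bases after a gene's start in RefSeq (GRCh38.p14), is read 5′ to 3′ on the gene's strand, and was taken at the listed start nearest to the start in the deposited table. Capitals mark the CCAAT box as CCAAT or its reverse complement ATTGG, and the GC box as GGGCGG or its reverse complement CCGCCC. Entries were found for NFYA (chr6:41072724-41073023, plus strand), NFYC (chr1:40691454-40691753, plus strand), SP1 (chr12:53379926-53380225, plus strand) and SP3 (chr2:173965653-173965952, minus strand), and there was no entry for NFYB.
NFYA: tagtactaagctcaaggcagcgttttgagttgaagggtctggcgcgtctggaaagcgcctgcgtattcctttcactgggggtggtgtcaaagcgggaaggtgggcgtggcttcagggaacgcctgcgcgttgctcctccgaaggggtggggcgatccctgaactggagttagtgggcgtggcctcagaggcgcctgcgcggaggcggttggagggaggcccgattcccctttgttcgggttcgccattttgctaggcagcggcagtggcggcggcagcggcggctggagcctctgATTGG
NFYC: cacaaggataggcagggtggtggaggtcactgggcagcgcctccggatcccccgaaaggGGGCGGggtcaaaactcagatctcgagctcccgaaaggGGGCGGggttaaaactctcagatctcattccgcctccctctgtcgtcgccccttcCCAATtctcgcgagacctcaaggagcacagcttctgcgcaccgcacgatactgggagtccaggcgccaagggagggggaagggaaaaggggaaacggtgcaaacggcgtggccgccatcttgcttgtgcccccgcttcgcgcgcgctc
SP1: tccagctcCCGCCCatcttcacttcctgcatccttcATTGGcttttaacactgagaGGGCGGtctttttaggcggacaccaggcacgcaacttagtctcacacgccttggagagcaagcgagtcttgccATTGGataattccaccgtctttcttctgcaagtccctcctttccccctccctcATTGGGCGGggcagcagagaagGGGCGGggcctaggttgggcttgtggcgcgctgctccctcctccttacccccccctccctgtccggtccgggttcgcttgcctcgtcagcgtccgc
SP3: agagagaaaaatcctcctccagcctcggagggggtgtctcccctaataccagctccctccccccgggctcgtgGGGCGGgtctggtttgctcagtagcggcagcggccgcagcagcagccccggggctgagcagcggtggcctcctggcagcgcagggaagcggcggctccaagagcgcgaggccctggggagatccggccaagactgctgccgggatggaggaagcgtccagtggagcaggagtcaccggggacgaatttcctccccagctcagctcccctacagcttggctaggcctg

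The 4 windows differ in what they hold. NFYA had 1 CCAAT box, 45 to 49 bases past the start, and no GC box. NFYC had 1 CCAAT box and 2 GC boxes, SP1 had 3 CCAAT boxes and 4 GC boxes, and SP3 had 1 GC box and no CCAAT box. In SP1 a CCAAT box on the reverse strand and a GC box shared bases, from 68 to 60 bases before the start. Over the 10567 tested genes with an entry, 37.8% of windows held a CCAAT box and 69.3% a GC box, and 3 of the 4 members held each, a number of windows too small to set against these shares. A match is a word in a window and says nothing of binding in these cells.

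Promoters of 3 genes that are known to be read through NF-Y are given for comparison, one each from the cell cycle (CCNB2, the gene of cyclin B2, chr15:59104896-59105195, plus strand), sterol synthesis (FDPS, farnesyl diphosphate synthase, chr1:155308616-155308915, plus strand) and the ER stress response (HSPA5, the ER chaperone BiP, chr9:125241294-125241593, minus strand).
CCNB2: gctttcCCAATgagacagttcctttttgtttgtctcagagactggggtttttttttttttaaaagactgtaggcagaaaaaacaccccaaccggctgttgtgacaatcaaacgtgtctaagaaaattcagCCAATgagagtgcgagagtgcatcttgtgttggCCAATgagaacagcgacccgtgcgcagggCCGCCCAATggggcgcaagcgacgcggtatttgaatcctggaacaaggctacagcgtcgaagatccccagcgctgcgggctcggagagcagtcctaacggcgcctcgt
FDPS: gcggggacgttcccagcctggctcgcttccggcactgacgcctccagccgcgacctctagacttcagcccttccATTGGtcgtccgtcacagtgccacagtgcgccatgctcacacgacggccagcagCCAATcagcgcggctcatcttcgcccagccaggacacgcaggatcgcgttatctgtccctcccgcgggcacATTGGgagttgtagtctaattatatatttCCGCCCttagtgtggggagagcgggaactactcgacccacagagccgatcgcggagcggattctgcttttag
HSPA5: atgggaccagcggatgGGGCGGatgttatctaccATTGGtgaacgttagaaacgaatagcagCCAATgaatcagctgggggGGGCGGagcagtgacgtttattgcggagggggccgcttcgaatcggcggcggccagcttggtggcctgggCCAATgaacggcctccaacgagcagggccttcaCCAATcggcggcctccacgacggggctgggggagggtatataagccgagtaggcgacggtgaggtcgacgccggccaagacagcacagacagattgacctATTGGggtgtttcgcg

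CCNB2 held 4 CCAAT boxes, the last of which shared bases with a GC box, FDPS held 3 and HSPA5 held 5. Among the genes listed further on for the same process, none with an entry held more, so these windows are not typical. Some of the listed cell cycle and sterol genes held no CCAAT box. In HSPA5 the box at 66 bases before the start was followed after 9 bases by CCACG, the arrangement CCAATcggcggcctCCACG known as an ER stress element. These 3 genes did not move alike in CJ28, as given further on.

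NFYA lies on chromosome 6 (41072945 to 41099976 on GRCh38), NFYB on chromosome 12 (104117086 to 104138241), NFYC on chromosome 1 (40691648 to 40771603), SP1 on chromosome 12 (53380176 to 53416446) and SP3 on chromosome 2 (173880850 to 173965702), and all 5 are annotated as protein-coding. Because TPM is corrected for length, levels can be compared between genes, whereas the number of reads behind a value is not in the table. Mean levels in VEH stood above those of 58.8% (NFYA), 69.4% (NFYB), 72.7% (NFYC), 79.1% (SP1) and 87.5% (SP3) of the 12519 tested protein-coding genes, whose median was 7.18 TPM. The table gives 1 value for each gene, so the splice forms of NFYA, SP1 or SP3 were not separated.

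NFYA, the subunit that completes the trimer, had 8.33, 9.48, 9.73 and 10.53 TPM in the 4 VEH samples. It had 4.25, 4.13, 3.72 and 5.01 TPM in CJ28 and 9.56, 9.39, 9.38 and 9.44 TPM in MET. Every CJ28 sample was below every VEH and every MET sample, while the MET samples lay inside the VEH range. The means were 9.52 ± 0.91 TPM in VEH (SD, n = 4 here and in what follows), 4.28 ± 0.539 in CJ28 and 9.44 ± 0.0826 in MET, the 4 MET samples being much closer together than those of VEH. The log2 fold change of CJ28 against VEH was -1.14 (standard error 0.086), 0.454 times the VEH level, and 4.87% of the tested genes had a lower one. These are the values on which the group of genes was chosen, and fold changes are on the scale of log2(TPM + 0.1), which understates the change of genes with low TPM. In bulk RNA, fewer cells that express a gene and less of its RNA per cell cannot be told apart.

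NFYB, a histone-fold subunit, had 13.06, 13.62, 13.10 and 14.85 TPM in VEH and 9.61, 8.43, 12.09 and 10.41 TPM in CJ28. In MET it had 13.95, 13.34, 14.01 and 13.60 TPM. The CJ28 samples were again all below the other 8, but their spread was the widest of the 3 groups, 10.1 ± 1.54 TPM against 13.7 ± 0.835 in VEH and 13.7 ± 0.314 in MET. The log2 fold change against VEH was -0.44 (standard error 0.088). CJ28 replicate 3 had the highest NFYB and the lowest NFYA of its group.

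NFYC, the other histone-fold subunit, had 14.20, 14.61, 15.91 and 16.83 TPM in VEH and 15.73, 15.49, 16.04 and 19.68 TPM in CJ28. In MET it had 13.96, 14.26, 14.78 and 14.31 TPM. It was the one member whose CJ28 samples overlapped those of VEH, with means of 16.7 ± 1.98 and 15.4 ± 1.21 TPM and a difference of 0.12 on the log2 scale (standard error 0.075). CJ28 replicate 4 stood apart at 19.68 TPM, and without it the log2 fold change was 0.037. The antisense gene NFYC-AS1 overlaps NFYC and was at 2.66 ± 0.0763 TPM in VEH and 1.92 ± 0.131 in CJ28. On the opposite strand of NFYA lies OARD1, with mean levels of 10.2 (VEH), 10.8 (CJ28) and 10.03 TPM (MET). The libraries were stranded, and the strand setting of the quantification is not given in the sources used here.

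SP1, the founding member of its family, had 19.25, 21.35, 19.98 and 21.06 TPM in VEH and 15.55, 16.47, 15.51 and 15.75 TPM in CJ28. In MET it had 19.25, 20.22, 18.24 and 18.91 TPM. The CJ28 samples lay close together below all others, at 15.8 ± 0.446 TPM against 20.4 ± 0.972 in VEH, a log2 fold change of -0.36 (its standard error was 0.045).

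SP3, which binds the same GC boxes, was the most abundant member, with 29.93, 32.96, 32.07 and 31.12 TPM in VEH and 26.35, 23.79, 26.24 and 24.38 TPM in CJ28. In MET it had 30.08, 30.68, 29.85 and 30.07 TPM. The CJ28 samples were below all others here too, at 25.2 ± 1.3 TPM against 31.5 ± 1.3 in VEH, a log2 fold change of -0.32 (its standard error was 0.042). VEH replicate 1 had the lowest level of its group for all 5 members. The pseudogene NFYAP1 was listed at 0 in every sample and SP3P at 0.02 TPM or less. These levels were set after shared reads had been divided. They therefore cannot show whether reads of these copies were given to NFYA or SP3.

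**Figure D1:**
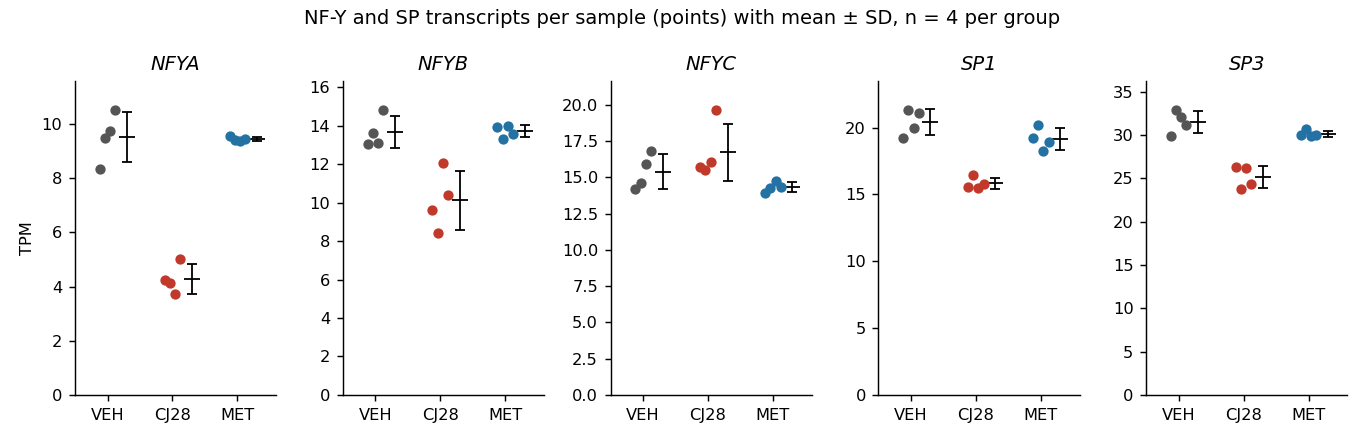
TPM of the 5 members in each sample (points) by group, with the mean ± SD beside them (n = 4), on axes that start at 0. The CJ28 samples lie below all VEH samples for NFYA, NFYB, SP1 and SP3, NFYC overlaps with 15.49 to 19.68 TPM in CJ28 against 14.20 to 16.83 in VEH, and the MET samples overlap those of VEH in every panel.

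Of the 5 members, 4 did not overlap between CJ28 and VEH and were lower, where 32.7% of all tested genes were lower without overlap. The same 4 were among the genes with an adjusted p under 0.05 in limma that were lower in CJ28, which were 37.1% of those tested, while 19.9% were higher and 57.0% were called in either direction. Since the group was chosen in this contrast, nothing is read from that count. Over the tested genes the median of the log2 fold changes was -0.13, and it was 0.014 after each sample's TPM was divided by a median-of-ratios factor. Of the called genes, 65.1% were lower before and 47.4% after this scaling. With it, the log2 fold changes of the members were -0.99 for NFYA, -0.29 for NFYB, -0.21 for SP1, -0.17 for SP3 and 0.27 for NFYC. Scaling moved all 5 members upward by nearly the same amount, which is small beside the value of NFYA and large beside that of SP3. After scaling NFYC was among the called genes, as higher in CJ28.

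MET against VEH was the comparison that the choice of the genes had not used, although it shares the VEH samples. None of the 5 members differed in it at an adjusted p under 0.05 in limma, against 0.00595% of all tested genes, which is 1 gene. None had an unadjusted p under 0.05 in limma, and none in a two-sided exact permutation test of TPM, in which 4 against 4 samples can reach 0.0286. The ranges of MET and VEH overlapped for all 5, where 2.81% of the tested genes did not overlap. The log2 fold change was -0.0064 for NFYA (95% confidence interval -0.19 to 0.18, limma) and 0.0087 for NFYB (-0.18 to 0.20). It was -0.099 for NFYC (-0.26 to 0.065), -0.091 for SP1 (-0.19 to 0.0061) and -0.062 for SP3 (-0.15 to 0.029). The smallest adjusted p was 0.933, for SP1, whose mean was 19.2 ± 0.825 TPM in MET.

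Set directly beside MET at the same dose and time, CJ28 had a log2 fold change of -1.13 for NFYA, -0.45 for NFYB, 0.22 for NFYC, -0.27 for SP1 and -0.26 for SP3. In this contrast none of the 5 members overlapped, and for NFYC the CJ28 samples were all above those of MET. Of all tested genes, 50.2% likewise did not overlap between these samples. The values rest on the CJ28 samples used to choose the genes and are therefore a description.

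**Figure D2:**
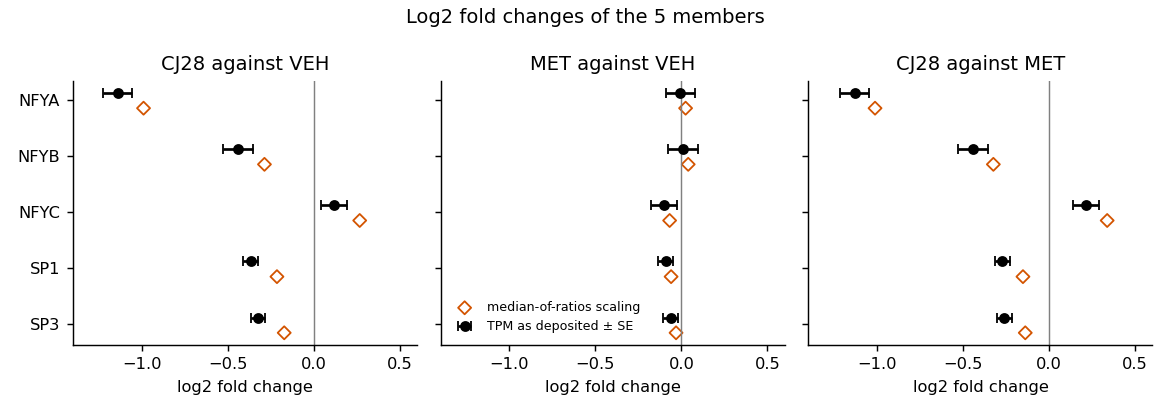
Log2 fold changes of the 5 members in 3 contrasts, with black points for TPM as deposited (bars, standard error of the limma fit over 12 samples) and open diamonds for TPM after median-of-ratios scaling. NFYA is near -1 against both VEH and MET, NFYC is above 0 in both contrasts of CJ28, and the values of MET against VEH lie within 0.1 of 0.

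The order of the mean levels was the same in VEH and MET and differed in CJ28 only in the places of SP1 and NFYC. In VEH it ran from NFYA through NFYB, NFYC and SP1 to SP3, and only NFYB and NFYC, whose means differed 1.13 times, overlapped in their ranges. MET had the same order, with NFYB and NFYC 1.04 times apart and overlapping. In CJ28 the order was NFYA, NFYB, SP1, NFYC and SP3, and here SP1 and NFYC overlapped, with NFYC above SP1 in 3 of 4 samples. Their means were only 1.06 times apart, and that of NFYC includes CJ28 replicate 4, which stood apart at 19.68 TPM. Little can therefore be read from this change of order. The gap between NFYA and NFYB was 1.44 times in VEH and 2.37 times in CJ28.

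Ratios of 2 members within a sample do not move with the scaling of the library. NFYA per NFYC was 0.587, 0.649, 0.612 and 0.626 in VEH, 0.270, 0.267, 0.232 and 0.255 in CJ28, and 0.685, 0.659, 0.635 and 0.660 in MET. The CJ28 samples had less NFYA for each NFYC than any other sample, and the difference of mean log2 ratios to VEH was -1.26. NFYA per NFYB was 0.638, 0.696, 0.743 and 0.709 in VEH and 0.442, 0.490, 0.308 and 0.481 in CJ28, a difference of -0.70. This ratio, too, did not overlap, and CJ28 replicate 3 was the lowest. NFYB per NFYC was 0.823 to 0.932 in VEH and 0.529 to 0.754 in CJ28, a difference of -0.55. The ratios with NFYA restate in part the low NFYA level on which the genes were chosen, and all are ratios of transcripts, not of proteins. SP1 per SP3, by comparison, was 0.623 to 0.677 in VEH and 0.590 to 0.692 in CJ28, ranges that overlapped, with a difference of -0.042.

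In MET, 4 ratios were tested against VEH by two-sided exact permutation tests of the mean log2 ratio. NFYB per NFYC was 0.999, 0.935, 0.948 and 0.950 in MET, above all 4 VEH samples, a difference of 0.11 with p = 0.0286, the smallest possible (exact permutation test, adjusted p = 0.114 over the 4 ratios). It therefore did not pass the adjusted threshold. The difference was 0.093 for NFYA per NFYC (exact permutation test, p = 0.0571, adjusted p = 0.114), -0.015 for NFYA per NFYB (p = 0.743) and -0.029 for SP1 per SP3 (p = 0.429).

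**Figure D3:**
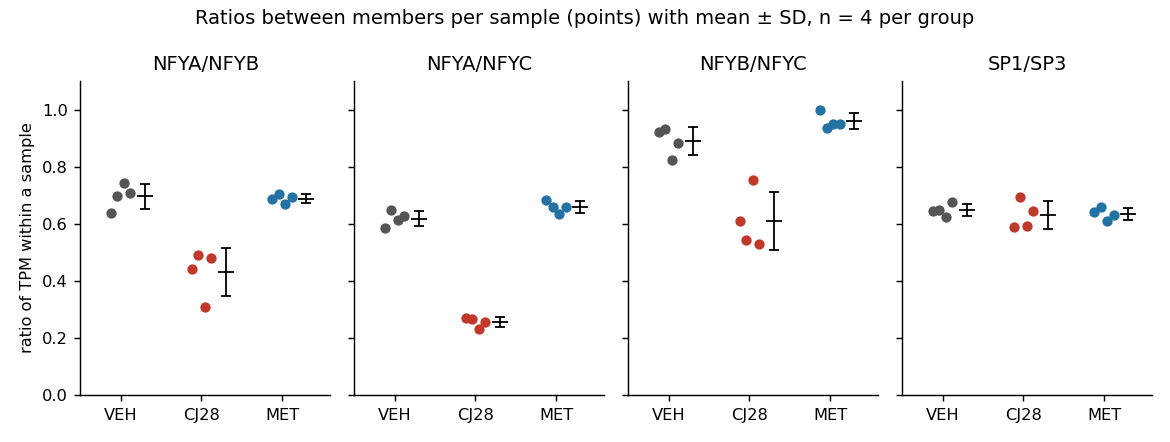
Ratios of the TPM of 2 members within each sample (points) by group, with the mean ± SD beside them (n = 4), on a shared axis from 0. All 3 ratios between NF-Y subunits are lower in every CJ28 sample than in any VEH sample, with NFYA per NFYC at 0.232 to 0.270 against 0.587 to 0.649, and SP1 per SP3 overlaps between the groups.

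The genes most like NFYA were sought among the 13305 tested genes with a mean of at least 1 TPM, by the root mean square difference of log2(TPM + 0.1), each centred on its own mean, over the 12 samples. Among the 5 nearest were SMC4 (0.0757), HNRNPA1 (0.0782), SRSF6 (0.0825) and PLAGL1 (0.0843), and 617 genes were within 0.2. The search took in the CJ28 samples on which the group was chosen, so a gene near NFYA must be lower in CJ28 too. The levels of these genes are therefore a description of what the search picked. SMC4, a condensin subunit, went from a mean of 98.6 TPM in VEH to 45.1 in CJ28. HNRNPA1 and SRSF6, which encode splicing regulators, had means of 402 and 41.1 TPM in VEH and 189 and 18.6 in CJ28. HNRNPA1 has many near-identical pseudogene copies, so its values are uncertain. With a pseudocount of 1 only 2 of the 5 were again among the nearest, a setting added after seeing the data. The other members were not close, since NFYB ranked 2730, SP1 3483, SP3 3882 and NFYC 9007 among these genes.

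The cells carried the transcripts of their label. Of 10 adrenocortical markers, 7 had a mean of at least 1 TPM. The summed level of all 10 was 275 to 286 TPM in VEH, 115 to 122 in CJ28 and 274 to 288 in MET. NR0B1 went against this sum, from 2.94 ± 0.271 TPM in VEH to 5.81 ± 0.292 in CJ28, without overlap. CYP11B1 was under 0.5 TPM in every sample. Among the markers of other cells, TH, DBH and PNMT of chromaffin cells, all 4 endothelial genes, 4 of 5 leukocyte genes and 4 of 6 fibroblast genes stayed under 0.5 TPM throughout. The summed level of the 5 chromaffin markers was 6.83 to 7.40 TPM in VEH and 5.02 to 6.17 in CJ28, almost all from CHGA and CHGB. The corresponding ranges were 1.00 to 1.91 and 0.45 to 1.07 TPM for fibroblast, 0.25 to 0.73 and 0.31 to 0.45 for leukocyte and 0.03 to 0.10 and 0.02 to 0.11 for endothelial markers.

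Relatives of the members were followed with the lists of 24 SP and KLF genes and 5 histone-fold genes. Of 16 SP and KLF genes tested, 4 fell and 6 rose in CJ28 against VEH (adjusted p under 0.05, limma), where 37.1% of all tested genes fell and 19.9% rose, and the list median was -0.14 beside -0.13 for all tested genes. SP4, the closest relative of SP1 and SP3 in the list, fell from 4.33 ± 0.282 to 2.90 ± 0.409 TPM, a change of -0.57 on the log2 scale (adjusted p = 3.9e-04, limma). KLF10 fell by 0.62 on the log2 scale. KLF15 rose from 1.63 ± 0.165 to 4.21 ± 0.314 TPM, a change of 1.32 on the log2 scale, KLF17 by 0.58 and KLF7 by 0.43, the call of KLF7 being lost without any of 4 single samples, with adjusted p from 0.076 to 0.107 in limma. The call of KLF7 was also lost without a filter on low values (adjusted p = 0.076, limma). After scaling 4 genes of the list fell and 7 rose, 3 rose without CJ28 replicate 1, and 2 fell among genes with a mean of at least 1 TPM.

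All 5 histone-fold relatives of NFYB and NFYC were called, in both directions, where 57.0% of all tested genes were called. POLE3, POLE4 and CHRAC1, which take part in DNA replication or chromatin remodelling, fell with log2 fold changes of -0.49, -0.81 and -0.78, whereas DR1 and DRAP1, the subunits of the repressor NC2, rose with 0.27 and 0.26 (largest adjusted p = 2.6e-04, limma). The same 5 were called in the same directions after scaling.

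Of 16 transcription factors that work beside NF-Y or SP proteins, 8 fell and 4 rose in CJ28, beside 37.1% and 19.9% of all tested genes, and 6 fell and 6 rose after scaling. SREBF1 and SREBF2, the genes of the sterol-regulated SREBP factors, fell with log2 fold changes of -4.25 and -1.07, and MYBL2, a factor of cell cycle genes, with -1.07. XBP1 and ATF6, which act at ER stress elements together with NF-Y, rose with 2.08 and 0.48, and RFXANK with 0.27. Of 12 coactivators and corepressors 8 fell and 1 rose, and after scaling 5 fell and 3 rose. HDAC1 fell from 24.5 ± 0.707 to 16.6 ± 0.367 TPM, the acetyltransferase gene EP300 had a log2 fold change of -0.53 (adjusted p = 0.0098, limma) and TAF4 one of -0.69 (adjusted p = 0.018), and KAT2A rose with 0.21 (adjusted p = 0.025). The call of KAT2A, the 1 gene that rose, was lost without a filter on low values and without VEH replicate 3, VEH replicate 4 or CJ28 replicate 4, and that of TAF4 without VEH replicate 4 or CJ28 replicate 3 (adjusted p from 0.050 to 0.071, limma).

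Genes known to be read through NF-Y or SP sites went in opposite directions in the same samples in which NFYA was low. All 17 cell cycle genes fell, with a median log2 fold change of -1.01 and a range from -2.79 to -0.57, led by RRM2 (-2.79), TK1 (-1.51) and PCNA (-1.4), and CCNB2 had -0.98. Of 14 sterol and fatty acid genes 13 fell, with a median of -1.37, led by SCD (-2.72), INSIG1 (-2.23) and HMGCS1 (-1.94), and FDPS had -1.29. GPAM was the exception with -0.034 (adjusted p = 0.550, limma), and 0.12 after scaling. All 9 ER stress genes rose, with a median of 0.60, led by DDIT3 (3.2), HSPA5 (1.12) and HYOU1 (1.11). These counts, and their directions, were the same after scaling, apart from GPAM, which was then called higher. The medians stand beside -0.13 for all tested genes, and the counts beside 37.1% of all tested genes that fell and 19.9% that rose. After scaling, 4430 of the 16815 tested genes fell and 4925 rose. No test of a list against other genes was made.

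Of the 6 genes put on the steroidogenic list for SP or NF-Y sites, 4 fell in CJ28, where 37.1% of all tested genes fell. The log2 fold change was -2.35 for CYP17A1, -1.36 for CYP11A1, -0.84 for NR5A1 and -0.69 for CYP21A2. SCARB1, the receptor for high-density lipoprotein, had 0.20 (adjusted p = 0.067, limma), and was called higher after scaling with 0.35. It was also called without CJ28 replicate 3 (0.28, adjusted p = 0.0070, limma) or without VEH replicate 4 (0.25, adjusted p = 0.031), so that single samples turn this call. HSD17B4 had 0.060 (adjusted p = 0.582, limma).

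Over all 8 lists, 57 of the 95 genes tested (60.0%) fell and 22 (23.2%) rose in CJ28, against 37.1% and 19.9% of all tested genes. The share that rose was near that of all genes. Those that fell include all 17 cell cycle genes and 13 of 14 sterol and fatty acid genes. Those that rose include all 9 ER stress genes. The lists were chosen with earlier results of these data known, so the pooled shares are a description. In MET none of the 95 was called in limma, and 6 had an unadjusted p under 0.05. MET left the medians of the lists between -0.075 and 0.0060, near the -0.026 of all tested genes.

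**Figure D4:**
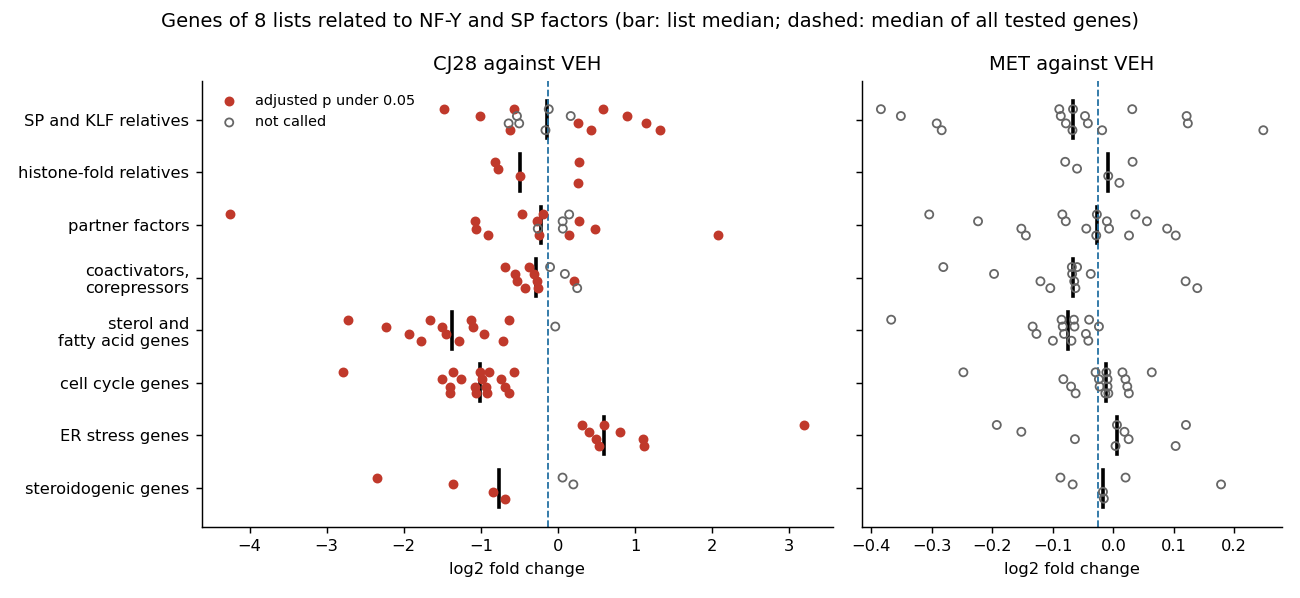
Log2 fold changes of the tested genes of 8 lists in CJ28 (left) and MET (right) against VEH, the axes differing in range, with filled points for an adjusted p under 0.05 in limma, a bar for the list median and a dashed line for the median of all tested genes. The cell cycle and sterol lists lie left of the line in CJ28 with medians of -1.01 and -1.37, the ER stress list lies right of it with 0.60, and no point is filled for MET.

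The CCAAT box was found in all 9 windows of ER stress genes and in 10 of 15 windows of cell cycle genes. It was in 6 of 9 windows of sterol and fatty acid genes, against 37.8% of all tested genes with an entry. The lists were drawn up from genes known for such boxes or, in the sterol list, also for SP sites, so these counts are a description. DHCR7 of the sterol list and TYMS and BUB1B of the cell cycle list held neither word. Their log2 fold changes were -1.66, -1.36 and -0.73, and TK1 held no CCAAT box. Of 5 genes of the steroidogenic list with an entry, 2 held a CCAAT box and 3 a GC box. CYP17A1 and CYP11A1, with the largest decreases of that list, held neither. Among all 10567 genes with an entry, the median change (log2) in CJ28 was -0.12 for the 2011 genes with neither word, -0.12 for the 1230 with a CCAAT box only, -0.090 for the 4559 with a GC box only and -0.15 for the 2767 with both. The share of genes called lower was 38.4%, 42.0%, 38.7% and 44.7% in the same order. For the 1537 genes with 2 or more CCAAT boxes the median was -0.19 and 47.7% were called lower. The share called lower was thus nearly the same with neither word and with a GC box only. It was largest with 2 or more CCAAT boxes, genes that are also part of the other classes with this box. The share called higher was 21.8% (neither), 22.8% (CCAAT box only), 24.15% (GC box only), 21.4% (both) and 20.6% (2 or more CCAAT boxes). No test was made between these classes. The classes also differ in base composition, with a median GC content of 57.7% for neither word and 66.0% for both, and the part of base composition in these values was not tested.

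**Figure D5:**
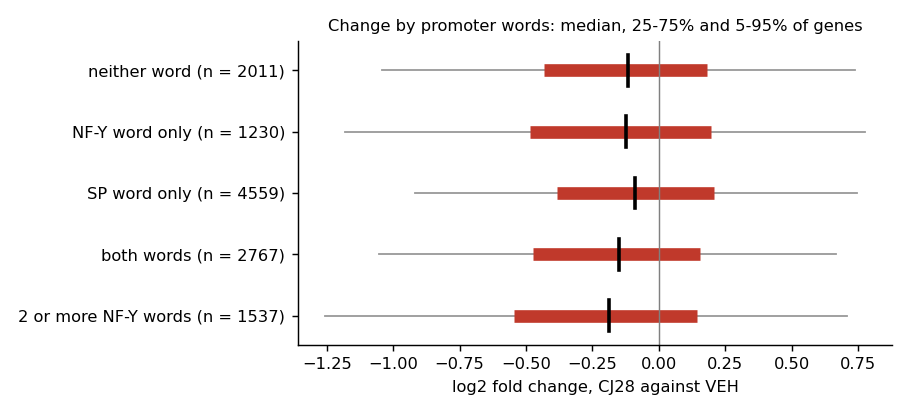
Log2 fold changes of CJ28 against VEH for genes grouped by the words in the promoter window (NF-Y word, the CCAAT box; SP word, the GC box; either strand), with the median as a bar, the range from the 25th to the 75th percentile as a thick line and 5% to 95% of the genes as a thin line. The median is -0.12 with neither word, -0.090 with the SP word only and -0.19 with 2 or more NF-Y words.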

How the data were processed

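Total RNA depleted of ribosomal RNA was sequenced from both ends in 12 samples. The authors trimmed reads with Cutadapt (2.8), mapped them to GRCh38 with STAR (2.7.10b) and quantified genes with RSEM (1.3.3), and deposited 1 table of TPM. The annotation release is not given in the sources used here. TPM keeps no depth, so no counting error was computed and the count model of the authors was not used.

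Log2(TPM + 0.1) of the 16815 genes with at least 0.5 TPM in at least 4 samples was fitted with limma (3.58.1, R 4.3.3; eBayes with a trend) over all 12 samples with no further term. Tests were two-sided, with Benjamini-Hochberg adjustment over all genes tested. Within-sample ratios were compared by exact permutation tests in scipy (1.17.1). The procedure was tested on simulated data with independent noise in which few genes were changed, a setting unlike that of CJ28 here. The genes named are the 5 members, all genes of lists of up to 6, and from longer lists up to 3 genes per direction with the largest change among those with an adjusted p under 0.05 and a mean TPM of at least 1, plus the 5 genes nearest to NFYA, of which 1 is not reported here. Named outside this rule, after their values were seen, were CCNB2, FDPS, GPAM, SP2, SP6, KLF4, DHCR7, TYMS, BUB1B, NR0B1 and the genes with the ER stress element. The members and lists were chosen with earlier results of these data known. Promoter sequences are those of RefSeq (GRCh38.p14), matched by symbol and chromosome for 10567 tested genes. Alternatives were pseudocounts of 1 and 0.01, no filter or a filter on mean TPM (at least 1), scaling by median-of-ratios factors, fits restricted to both groups of a contrast, a block for the replicate number, and each sample left out.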

Additional observations from a re-analysis of the deposited data

Results flagged for a closer look

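The level of NFYC in CJ28 came to notice because 1 of the 4 samples lay far from the others, replicate 4 with 19.68 TPM against 15.49 to 16.04 in the other samples. Its gap to the nearest sample was 0.869 of the range of the group, above the 95% critical value of Dixon's test for 4 samples. This check was made on 27 sets of 4 samples (5 levels and 4 ratios in 3 groups), and chance marks about 5% of such sets. Without this sample the log2 fold change of NFYC was 0.037 against VEH, in place of 0.12, and 0.14 against MET, in place of 0.22.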

How the results depend on the processing

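Under every alternative tried, NFYA, NFYB, SP1 and SP3 were lower and NFYC was higher in CJ28 than in VEH and in MET, and 4 members were among the genes called lower in CJ28 against VEH. With median-of-ratios scaling the log2 fold changes against VEH were -0.99 (NFYA), -0.29 (NFYB), 0.27 (NFYC), -0.21 (SP1) and -0.17 (SP3), and against MET -0.33 (NFYB), 0.34 (NFYC), -0.15 (SP1) and -0.14 (SP3), and 1 member, NFYC, was called higher against VEH in place of 0, as follows from dividing by factors that are smaller in CJ28. A pseudocount of 1 gave -0.996 and -0.99 for NFYA against VEH and MET, by its construction smaller. With each sample left out, NFYA was -1.22 to -1.08, NFYB -0.53 to -0.35 and NFYC 0.037 to 0.16 against VEH, and NFYB was -0.53 to -0.36 against MET.

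No member was called in MET against VEH under any alternative. The log2 fold change of NFYA turned to 0.024 with median-of-ratios scaling and was -0.068 to 0.043 with samples left out, lowest without VEH replicate 1 and highest without VEH replicate 4, and that of NFYB was -0.012 to 0.049. The log2 ratio of NFYA to NFYB ranged from -0.056 to 0.016 and that of NFYB to NFYC from 0.072 to 0.13 with samples left out, where 3 against 4 samples allow no p under 0.0571 (exact permutation test). The count of all genes called in MET against VEH, 1 here, was 0 with either other pseudocount or a mean TPM of at least 1, 5 without a filter and 1 to 2 with samples left out, 2 without MET replicate 4 or VEH replicate 4. With these settings 0 of the 5 members were called, too.

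Samples of equal replicate number did not deviate together (r from -0.124 to 0.039 across genes), and 3 of 24 comparisons correlated best with their own number. With the replicate number as a block, 6232 genes were lower and 3314 higher in CJ28, 4 members were called, and the log2 NFYB to NFYC ratio in MET was 0.108 with p = 0.125, the smallest that 4 pairs allow (exact permutation test). Of the listed genes the block called 56 lower and 24 higher, SCARB1 among the added calls (adjusted p = 0.024, limma). Of the listed genes, 52 to 57 fell and 18 to 29 rose over all alternatives. The number of reads behind a value is not in the table, so the precision of single values could not be given.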

Other observations

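The relatives of SP1 held a promoter that stood out, noticed after the values were seen. SP2, a family member that is known to bind near NF-Y, had 8 CCAAT boxes on either strand in its window (chr17:47895986-47896285, plus strand). By the same count, no other of the 10567 tested genes with an entry had 8 or more. The count takes in both strand readings of CCAATTGG, a CCAAT and an ATTGG that share bases. Separate boxes were therefore fewer than 8, and genes were not ranked by separate boxes. The sequence is shown because of the repeated CCAAT boxes, with the same words in capitals as before (GRCh38.p14, 5′ to 3′ on the strand of the gene).
SP2: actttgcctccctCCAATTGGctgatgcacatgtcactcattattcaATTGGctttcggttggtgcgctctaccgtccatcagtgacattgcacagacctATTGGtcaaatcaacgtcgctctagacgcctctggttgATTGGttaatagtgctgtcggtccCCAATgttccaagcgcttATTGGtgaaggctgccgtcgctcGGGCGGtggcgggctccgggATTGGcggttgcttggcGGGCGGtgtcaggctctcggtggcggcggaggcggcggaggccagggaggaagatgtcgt
SP2 fell from 1.17 ± 0.306 TPM in VEH (SD, n = 4) to 0.528 ± 0.12 in CJ28, a log2 fold change of -1.01 (adjusted p = 0.0055, limma), and had 0.898 ± 0.347 TPM in MET. Its window also held 2 GC boxes. SP6 fell as well, from 1.09 ± 0.17 to 0.325 ± 0.0173 TPM, and KLF4 rose with a log2 fold change of 1.14.

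The arrangement of CCAAT and CCACG with 9 bases between them, on either strand, was present in the window of 13 of the 10567 tested genes (0.123%), among them 4 of the 9 listed ER stress genes (HSPA5, HSP90B1, CALR and CRELD2) and XBP1. Of the 13 genes, 9 rose and 0 fell in CJ28 (limma, adjusted p under 0.05), with a median log2 fold change of 0.40. Of all 16815 tested genes, with or without an entry, 19.9% rose. Among genes with an entry the share that rose was 20.6% to 24.15% over the classes of promoter words. Outside the lists FICD rose with 1.25, TRIM5 with 0.84, ERO1B with 0.42 and SERP1 with 0.30. ZNF17 (-0.10), TMEM120A (0.066), ALG12 (0.068) and EIF2A (0.11) did not pass the threshold. This set was formed after values of its best-known members had been seen.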
